A study of Arabidopsis thaliana with 18 samples.

Results

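Thermomorphogenesis is the set of growth changes by which a seedling adjusts to mild warmth, with longer hypocotyls and petioles as its best known signs. PIF4 and its relatives, basic helix-loop-helix transcription factors that bind G-box and related sequences in promoters, drive many of the growth genes involved, among them those of auxin synthesis and response. HECATE proteins such as HEC1 and HEC2 are helix-loop-helix factors that can pair with PIFs, and the study asked whether they hold this response back. A genotype by temperature interaction asks a narrower question of each transcript: was its change from 22°C to 28°C of another size, or in another direction, in hec1hec2 than in Col-0?

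The interaction was measured as the log2 change from 22°C to 28°C in hec1hec2 minus the same log2 change in Col-0, over 12 of the 18 libraries of the series and over the 17828 genes with enough counts to be tested, of 33655 listed. The 4 groups were the hec1hec2 double mutant at 28°C, hec1hec2 at 22°C, the Col-0 wild type at 28°C and Col-0 at 22°C, with 3 libraries each. Per the labels, seedlings of all groups grew on sucrose-free MS medium for 5 days at 22°C in white light and then stayed for 24 hours at either temperature under continuous white light (the study's text gives an older age at transfer). RNA came from whole seedlings, the hec1hec2 line is in the Col-0 background, and only the 3′ end of each transcript was sequenced. The labels give neither the hour of harvest nor the number of seedlings pooled in a library. In whole seedlings fewer cells of a type and less RNA per cell cannot be told apart.

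Library totals ranged from 3631558 to 6285632 counts over the 12 libraries. Reads on HEC1 numbered 2691, 3271 and 2818 in the 28°C libraries labelled hec1hec2 and 3308, 3289 and 3282 in the 22°C ones, against 39, 47 and 68 in the 28°C libraries of Col-0 and 33, 64 and 34 in its 22°C libraries. HEC1 reads were thus higher, not lower, in the libraries with the label of a hec1 mutant. Reads from 3′ ends do not show whether a transcript is whole or functional, so this level does not settle the genotype. These 6 are called the libraries labelled hec1hec2. Reads on HEC2 numbered 6, 2 and 4 with warmth and 0, 0 and 0 without it in the libraries labelled hec1hec2, and 5, 8 and 7 with warmth and 3, 14 and 10 without it in Col-0. HEC2 was too low for a test, and so was HEC3, with 0 to 3 counts in each of the 12 libraries. The photosystem, antenna and Rubisco genes that mark green seedling tissue summed to between 146000 and 190000 CPM (counts per 1000000, each library total first scaled by its TMM factor) in the 12 libraries.

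The warmth responses of the genotypes followed each other over most of the transcriptome. The log2 responses correlated across the 17828 genes with a Pearson r of 0.84 (genes are not independent replicates). At a false discovery rate (FDR, Benjamini-Hochberg over all tested genes) of at most 0.05, 6771 genes changed with warmth in the libraries labelled hec1hec2, which is 38% of those tested, and 6227 genes, or 34.9%, changed in Col-0. The genotypes differed in 782 genes (4.39%) at 28°C and in 723 genes (4.06%) at 22°C. The interaction itself passed this FDR in 52 genes, 0.292% of those tested, of which 30 had a higher and 22 a lower response in the libraries labelled hec1hec2. With the further demand of a 2-fold difference between the responses, 24 genes (0.135%) were called, 16 higher (0.0897%) and 8 lower (0.0449%).

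The count of 24 called genes moved with the libraries in the fit. DESeq2 called 20 genes and limma voom 18 on the same 12 libraries. A fit of all 18 libraries, which adds the 6 of the pifQ mutant, called 3 genes, while 17 libraries without pifQ 22°C replicate 2 called 19. That library stood apart, with 41.2% of its counts on chromosome 1 against 29.1% to 30% in the 12 libraries used here. The 3 genes called in every fit were CCL, AT3G62550 and AT5G23240, and each of the 24 kept its direction on the log2 scale in every alternative fit that gave it an adjusted p, which DESeq2 did not for AT2G47780. Leaving out 1 library at a time gave between 16 and 30 called genes, of which between 15 and 22 were among the 24. Within its group hec1hec2 22°C replicate 1 stood further from the other libraries (chi-square per gene of 5.1 and 3.7) than those did from each other (1.98). It had the lowest TMM factor of the 12 (0.918), and without it 21 genes were called, 15 of them among the 24. The other groups had smaller gaps. Values were 3.07 and 2.88 against 2.01 for hec1hec2 28°C replicate 2 and 2.96 and 3.57 against 2.05 for Col-0 28°C replicate 1. For Col-0 22°C replicate 1 they were 2.53 and 2.59 against 1.88. The 8 lower genes became 3 without Col-0 28°C replicate 1, 4 without Col-0 22°C replicate 3, 5 without hec1hec2 28°C replicate 1 and 13 without hec1hec2 22°C replicate 3.

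**Figure D1:**
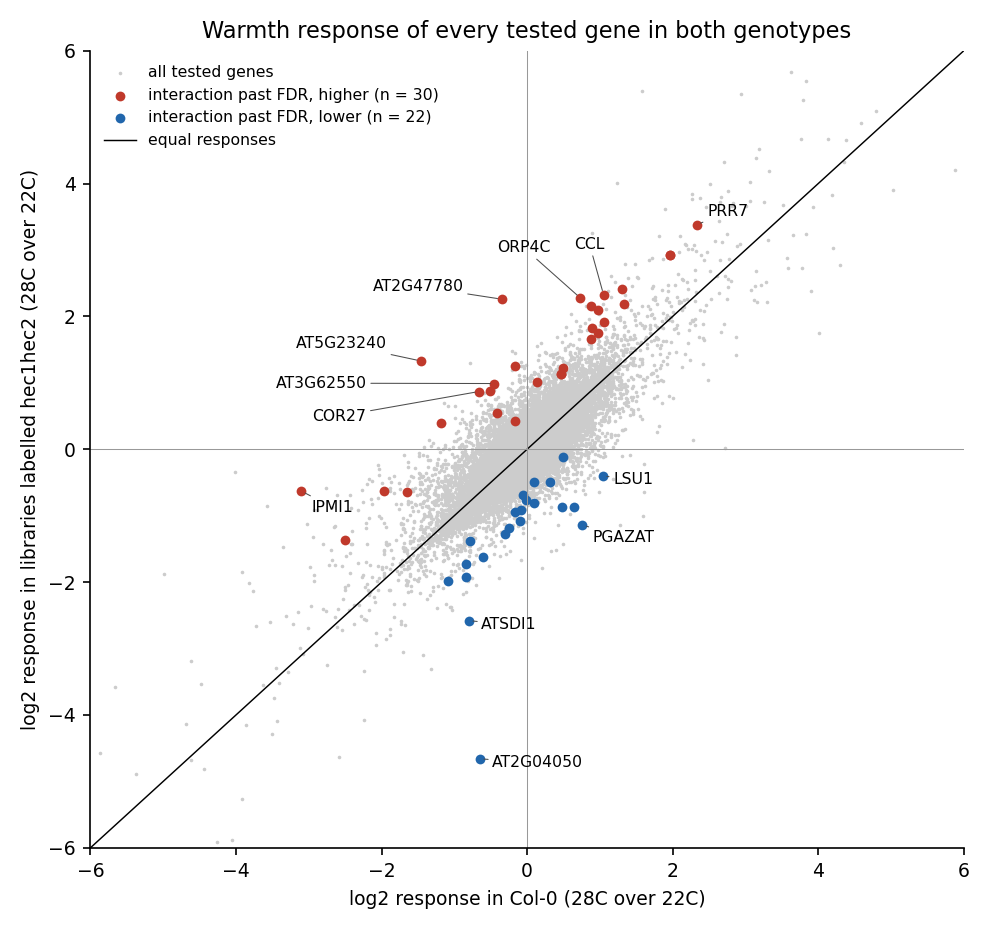
Log2 response to warmth (28°C over 22°C) in the libraries labelled hec1hec2 (vertical axis) against that in Col-0 (horizontal axis) for all tested genes in grey, except 7 that lie outside the axes. Of the genes past the interaction FDR, the 30 with a higher interaction lie above the line of equal responses and the 22 with a lower one lie below it.

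The genes with the lowest interaction p, CCL, AT3G62550 and AT5G23240, were lower in the libraries labelled hec1hec2 at 22°C. At 28°C they had caught up with Col-0 or passed it. This form was not general, as ORP4C lay below Col-0 at both temperatures and IPMI1 above it at both. CCL, a transcript known to follow the circadian clock, had 716, 571 and 625 CPM at 28°C and 119, 127 and 133 CPM at 22°C in the libraries labelled hec1hec2, against 532, 551 and 552 CPM at 28°C and 248, 267 and 277 CPM at 22°C in Col-0. All 3 libraries labelled hec1hec2 lay above all Col-0 libraries at 28°C and below them at 22°C. The log2 response of CCL was 2.33 in the libraries labelled hec1hec2 and 1.05 in Col-0, an interaction of 1.29 ± 0.13 (log2, SE, n = 3 per group, FDR 4.7e-07). The genotype difference of 0.23 at 28°C missed the threshold (FDR 0.15), whereas that of −1.06 at 22°C passed it (FDR 2.7e-09).

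In several genes the direction of the response itself turned round. AT3G62550, annotated as an adenine nucleotide alpha hydrolase-like protein, had 99.5, 92.4 and 97.9 CPM at 28°C and 45.9, 43.4 and 57.2 CPM at 22°C in the libraries labelled hec1hec2, against 69.7, 76.1 and 60.5 CPM at 28°C and 104, 93.2 and 84.7 CPM at 22°C in Col-0. It rose with warmth by 0.99 in the libraries labelled hec1hec2 (log2, FDR 2.4e-08) and fell by 0.45 in Col-0 (FDR 0.0019), with an interaction of 1.44 ± 0.16 (SE, FDR 4e-06). AT5G23240, which carries a DnaJ domain as found in chaperones that work with HSP70, had 11.8, 11.1 and 15.6 CPM at 28°C and 5.56, 3.58 and 6.06 CPM at 22°C in the libraries labelled hec1hec2. In Col-0 it had 5.63, 5.67 and 3.07 CPM at 28°C and 13.3, 13 and 12.7 CPM at 22°C, so that at neither temperature did the genotypes overlap. Its interaction was 2.79 ± 0.33 (log2, SE, FDR 1.6e-05), from a response of 1.33 in the libraries labelled hec1hec2 and one of −1.46 in Col-0.

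COR27, a cold-regulated gene that acts in the circadian clock, also responded in opposite directions. Its log2 response was 0.87 in the libraries labelled hec1hec2 (FDR 0.00058) and −0.66 in Col-0 (FDR 0.0058). It had 14.5, 13.4 and 10.9 CPM at 28°C and 6.6, 7.59 and 6.95 CPM at 22°C in the libraries labelled hec1hec2, against 7.79, 11.9 and 10.2 CPM at 28°C and 15.9, 15.3 and 15.7 CPM at 22°C in Col-0. The genotypes overlapped at 28°C and stood apart at 22°C, and the interaction was 1.53 ± 0.27 (log2, SE, FDR 0.0047). Among the 52 genes, 5 rose past the FDR in the libraries labelled hec1hec2 and fell in Col-0, while 3 did the opposite. The fitted responses shared a sign for 35 of the 52 (67.3%), against 81% of all tested genes. The 52 were chosen by the difference between these responses, which by itself favours opposite signs. The CCT-domain gene AT1G07050 fell with warmth in Col-0 (−1.18, FDR 4.1e-05), and its response of 0.4 in the libraries labelled hec1hec2 missed the threshold (FDR 0.11), which gave an interaction of 1.57 ± 0.29 (SE, FDR 0.0061). AT5G62360, annotated as an inhibitor of invertase or pectin methylesterase, rose by 1.25 in the libraries labelled hec1hec2 (FDR 4.2e-07), and its response of −0.17 in Col-0 missed the threshold (FDR 0.46), with an interaction of 1.42 ± 0.23 (SE, FDR 0.0027).

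**Figure D2:**
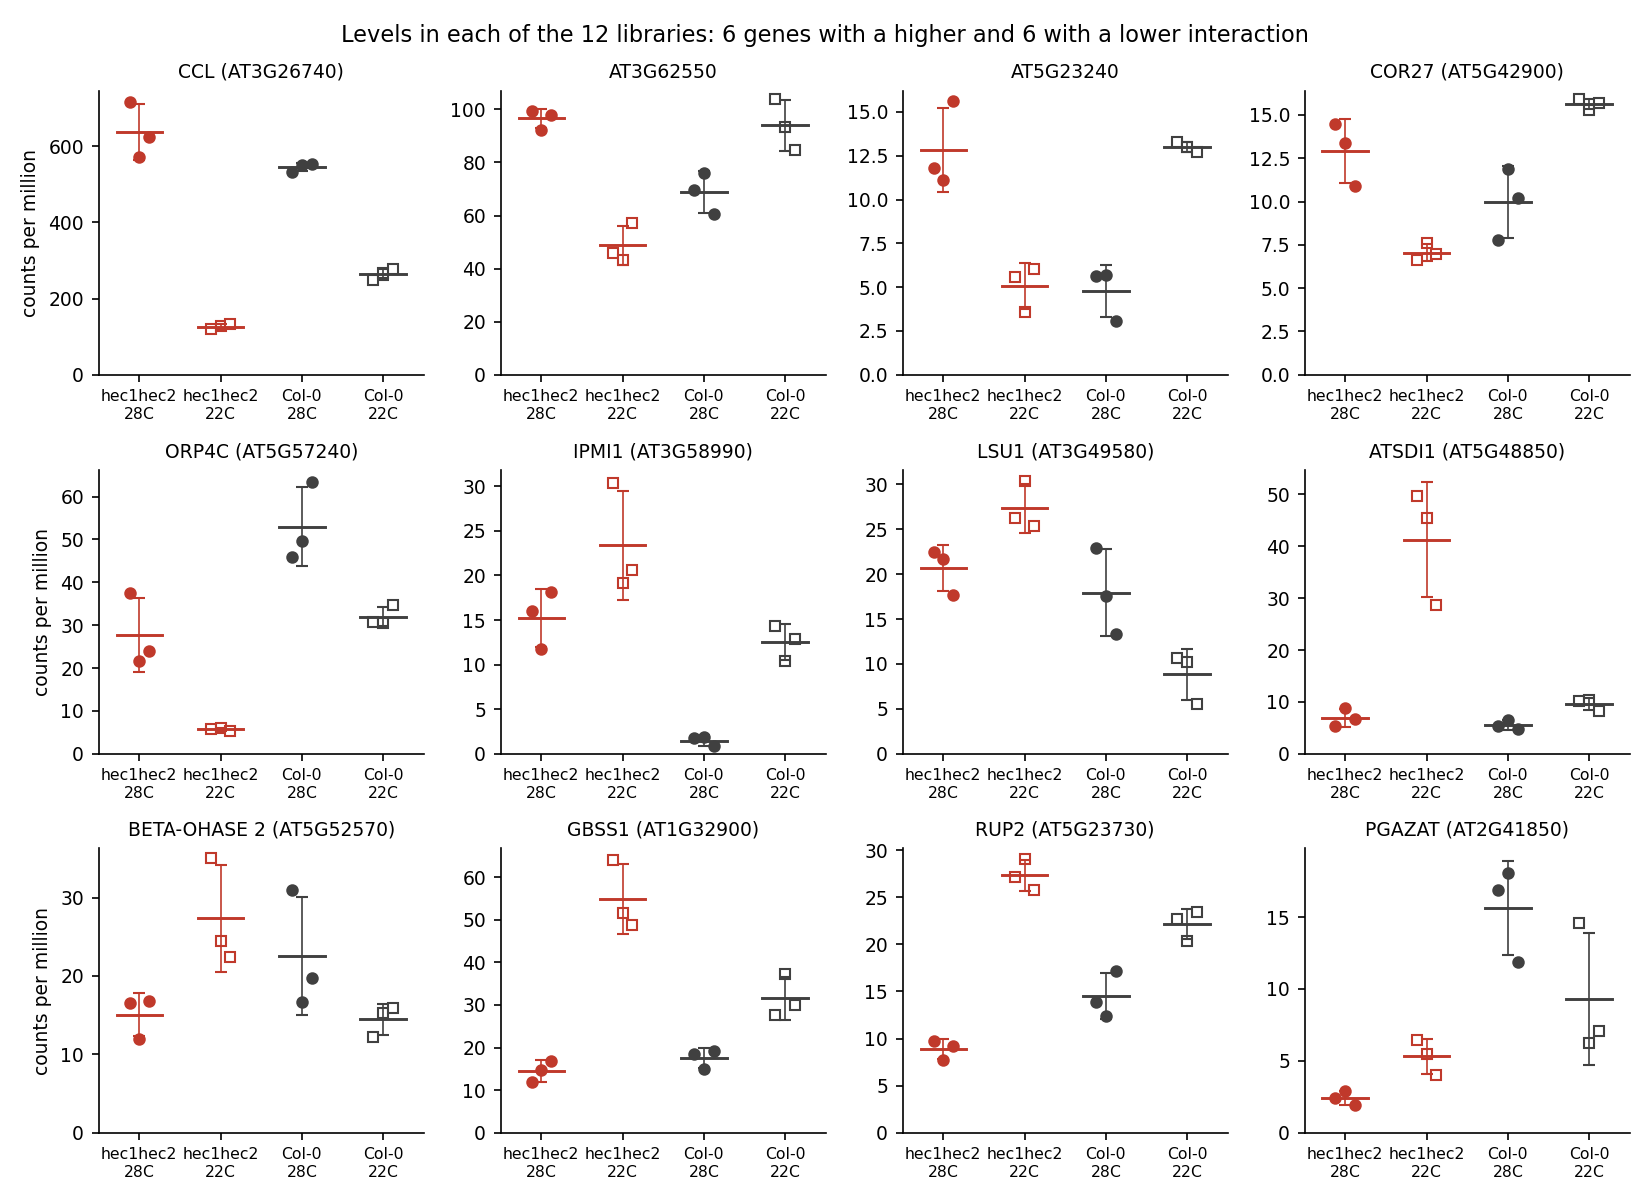
Level in CPM (vertical axes, from 0) in each of the 12 libraries for 6 called genes with a higher and 6 with a lower interaction. Points are libraries, horizontal bars are group means and whiskers are SDs (n = 3), red marks the libraries labelled hec1hec2, filled circles are 28°C and open squares 22°C. For CCL all 3 libraries labelled hec1hec2 at 22°C lie between 119 and 133 CPM, below the 248 to 277 CPM of Col-0.

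SEN1 was 1 of 3 genes past the FDR in the low energy and sugar response list, whose members plants switch on in darkness or when sugar runs short. SEN1, a senescence gene induced by darkness, had 285, 208 and 240 CPM at 28°C and 56.1, 44.3 and 35.4 CPM at 22°C in the libraries labelled hec1hec2, against 275, 320 and 379 CPM at 28°C and 132, 102 and 160 CPM at 22°C in Col-0. The genotypes overlapped at 28°C and stood apart at 22°C, with an interaction of 1.11 ± 0.2 (log2, SE, FDR 0.0064). Of the 13 tested members of the low energy and sugar response list, 3 passed the FDR on the log2 scale, all higher, against 0.292% of all tested genes, with a median interaction of 0.37 against 0.01 over all tested genes. The others, chosen for naming after their values were seen, were ASN1, an asparagine synthetase induced in the dark (0.95 ± 0.2, SE, FDR 0.03), and AT3G15450, annotated as aluminum induced (0.77 ± 0.16, SE, FDR 0.027). Both were lower in the libraries labelled hec1hec2 than in Col-0 at both temperatures, with differences for ASN1 of −0.62 at 28°C and −1.58 at 22°C (log2). On the linear scale both turned, to −83.3 CPM for ASN1 and −39.4 CPM for AT3G15450, and each passed the FDR in 5 of the 12 fits that left out a library.

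ICL, the isocitrate lyase of the glyoxylate cycle through which seedlings use stored oil, rose in both genotypes and kept a lower level in the libraries labelled hec1hec2. It had 196, 137 and 164 CPM at 28°C and 31.8, 47.8 and 37.9 CPM at 22°C in the libraries labelled hec1hec2, against 271, 277 and 399 CPM at 28°C and 143, 171 and 171 CPM at 22°C in Col-0. Its log2 response was 2.09 in the libraries labelled hec1hec2 and 0.97 in Col-0 (interaction 1.12 ± 0.2, SE, FDR 0.0051). On the linear scale the sign turned, where the interaction was −27.4 CPM. PRR7, a repressor in the circadian clock, behaved likewise, with an interaction of 1.05 ± 0.23 on the log2 scale (SE, FDR 0.034) and of −6.41 CPM on the linear scale. The other 22 called genes had the same sign on both scales. ICL lost its call without hec1hec2 28°C replicate 1 or hec1hec2 22°C replicate 1, and SEN1 without hec1hec2 28°C replicate 1, hec1hec2 22°C replicate 3 or Col-0 22°C replicate 3.

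ORP4C, annotated as an oxysterol-binding protein relative, had 37.6, 21.7 and 23.9 CPM at 28°C and 5.73, 5.9 and 5.38 CPM at 22°C in the libraries labelled hec1hec2, against 45.9, 49.7 and 63.4 CPM at 28°C and 30.7, 30.6 and 34.6 CPM at 22°C in Col-0. It was lower than in Col-0 at both temperatures without overlap, with log2 differences of −0.94 at 28°C and −2.49 at 22°C. The interaction was 1.55 ± 0.26 (log2, SE, FDR 0.0036). AT2G47780, annotated as a rubber elongation factor protein, had an interaction of 2.61 ± 0.56 (SE, FDR 0.032) on between 0.449 and 7.88 CPM, and stayed called in 4 of the 12 fits that left out a library. Fes1B, AT1G07985, CB5-C and AT4G30650, chosen for naming after their values were seen, complete the 16 higher genes with interactions between 1.13 and 1.39.

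Of the 28 genes past the FDR but under 2-fold, those named here were also chosen after their values were seen. DYL1 and AT2G33830, annotated as dormancy-associated proteins, had interactions of 0.86 ± 0.15 and 0.78 ± 0.12 (log2, SE, FDR 0.0047 and 0.0018). AT2G33830 had 850, 835 and 813 CPM at 28°C and 238, 270 and 281 CPM at 22°C in the libraries labelled hec1hec2, against 887, 1050 and 1040 CPM at 28°C and 525, 510 and 575 CPM at 22°C in Col-0. MEE14, AT1G80440, AT1G56300 and PHS2, the last an alpha-glucan phosphorylase of starch breakdown, had interactions between 0.86 and 0.97. NYC1, a chlorophyll b reductase that begins chlorophyll breakdown, rose in the libraries labelled hec1hec2 (0.42, FDR 0.00021) and had a response of −0.16 in Col-0 (FDR 0.14), with an interaction of 0.58 ± 0.12 (SE, FDR 0.021), past the FDR in 7 of the 12 fits that left out a library. RbcX1, a chaperone of Rubisco assembly, had an interaction of 0.88 ± 0.15 (SE, FDR 0.0047).

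The 8 called genes with a lower interaction were LSU1, ATSDI1, GBSS1, BETA-OHASE 2, AT3G28220, RUP2, PGAZAT and AT2G04050. LSU1, a gene of the response to low sulfur, had 22.5, 21.7 and 17.7 CPM at 28°C and 26.2, 30.4 and 25.3 CPM at 22°C in the libraries labelled hec1hec2, against 22.9, 17.6 and 13.3 CPM at 28°C and 10.7, 10.2 and 5.59 CPM at 22°C in Col-0. It overlapped with Col-0 at 28°C and stood above it in all 3 libraries at 22°C. LSU1 rose with warmth in Col-0 (1.04, FDR 0.00031) and its response of −0.4 in the libraries labelled hec1hec2 missed the threshold (FDR 0.063), with an interaction of −1.44 ± 0.28 (SE, FDR 0.0091). The sulfur deficiency induced gene ATSDI1, a repressor of aliphatic glucosinolate synthesis, had 5.34, 8.78 and 6.61 CPM at 28°C and 49.7, 45.5 and 28.7 CPM at 22°C in the libraries labelled hec1hec2. In Col-0 it had 5.41, 6.48 and 4.7 CPM at 28°C and 10.2, 10.4 and 8.17 CPM at 22°C. Its high level was therefore found in a single group, the libraries labelled hec1hec2 at 22°C, and the interaction was −1.78 ± 0.34 (log2, SE, FDR 0.01).

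GBSS1, the granule-bound starch synthase that makes amylose, had 11.8, 14.8 and 16.8 CPM at 28°C and 64.1, 51.6 and 48.7 CPM at 22°C in the libraries labelled hec1hec2, against 18.6, 14.9 and 19.2 CPM at 28°C and 27.6, 37.3 and 29.9 CPM at 22°C in Col-0. It fell with warmth in both genotypes, further in the libraries labelled hec1hec2 (interaction −1.08 ± 0.22, SE, FDR 0.02). BETA-OHASE 2, a beta-carotene hydroxylase of xanthophyll synthesis, had 16.5, 11.9 and 16.8 CPM at 28°C and 35.1, 24.5 and 22.4 CPM at 22°C in the libraries labelled hec1hec2, against 31, 16.7 and 19.8 CPM at 28°C and 12.2, 15.3 and 15.9 CPM at 22°C in Col-0. Its responses ran in opposite directions, −0.87 in the libraries labelled hec1hec2 (FDR 0.00055) and 0.64 in Col-0 (FDR 0.015), with an interaction of −1.51 ± 0.28 (SE, FDR 0.0075). AT3G28220, annotated as a TRAF-like protein, had an interaction of −1.36 ± 0.28 (SE, FDR 0.02). Without Col-0 28°C replicate 1, in which BETA-OHASE 2 stood at 31 CPM, BETA-OHASE 2 and LSU1 lost their calls, as LSU1 did without Col-0 22°C replicate 3 and ATSDI1 without Col-0 28°C replicate 2. GBSS1 kept its call in 6 of the 12 fits that left out a library and AT3G28220 in 8.

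RUP2, a repressor of UV-B signalling, was the lower interaction with the smallest size among those called. It had 9.79, 7.74 and 9.17 CPM at 28°C and 27.1, 29.1 and 25.8 CPM at 22°C in the libraries labelled hec1hec2, against 13.9, 12.4 and 17.2 CPM at 28°C and 22.7, 20.4 and 23.4 CPM at 22°C in Col-0. The libraries labelled hec1hec2 lay below Col-0 at 28°C and above it at 22°C, with an interaction of −1.02 ± 0.22 (log2, SE, FDR 0.036), a call kept in 2 of the 12 fits that left out a library. PGAZAT, annotated as the polygalacturonase ADPG2, a pectin-degrading enzyme, had 2.45, 2.93 and 1.92 CPM at 28°C and 6.43, 5.48 and 4.04 CPM at 22°C in the libraries labelled hec1hec2, against 16.9, 18.1 and 11.9 CPM at 28°C and 14.6, 6.26 and 7.09 CPM at 22°C in Col-0. Its interaction was −1.89 ± 0.43 (log2, SE, FDR 0.045), called in 3 of the 12 fits that left out a library. Reads on AT2G04050, annotated as a MATE efflux protein, numbered 3, 1 and 1 with warmth and 95, 19 and 35 without it in the libraries labelled hec1hec2, against 28, 37 and 30 with warmth and 46, 55 and 44 without it in Col-0. It was the 1 called gene with a group under 10 counts, so its fitted difference depends on the prior count.

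Of the lower interactions past the FDR but under 2-fold, those named here were chosen after their values were seen. COL2, a CONSTANS-like B-box gene, had 22.9, 18.2 and 27.9 CPM at 28°C and 97.5, 89.6 and 87.7 CPM at 22°C in the libraries labelled hec1hec2, against 33.5, 32.1 and 40.3 CPM at 28°C and 71.7, 81.4 and 72 CPM at 22°C in Col-0. Its interaction was −0.91 ± 0.18 (log2, SE, FDR 0.011). CH1, the oxygenase that makes chlorophyll b, fell in the libraries labelled hec1hec2 (−0.49, FDR 6.3e-05) and had a response of 0.1 in Col-0 (FDR 0.45), with an interaction of −0.59 ± 0.13 (SE, FDR 0.036), past the FDR in 2 of the 12 fits that left out a library. NDA1, an alternative NAD(P)H dehydrogenase, had an interaction of −0.93 ± 0.2 (SE, FDR 0.023), past the FDR in 6 of those fits.

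The 52 genes were more often set apart by their 22°C level than by their 28°C level. The genotype difference was larger in size at 22°C than at 28°C for 34 of the 52 genes (65.4%), against 48.5% of all tested genes, with median sizes of 0.43 at 28°C and 0.79 at 22°C on the log2 scale. The counts that follow use the FDR alone for the genotype difference, without the 2-fold demand. Among the 30 higher genes, 15 did not pass at 28°C and were lower in the libraries labelled hec1hec2 at 22°C. Another 6 were higher at 28°C and lower at 22°C, and 5 were lower at both temperatures. A further 3 were higher at both temperatures, and 1 was higher at 28°C and did not pass at 22°C. Of the 22 lower genes, 12 were lower at 28°C and did not pass at 22°C, and 10 did not pass at 28°C and were higher at 22°C. The response was larger in size in the libraries labelled hec1hec2 for 44 of the 52 (84.6%), against 53.5% of all tested genes. These values come from the same 12 libraries as the interaction and describe its form.

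**Figure D3:**
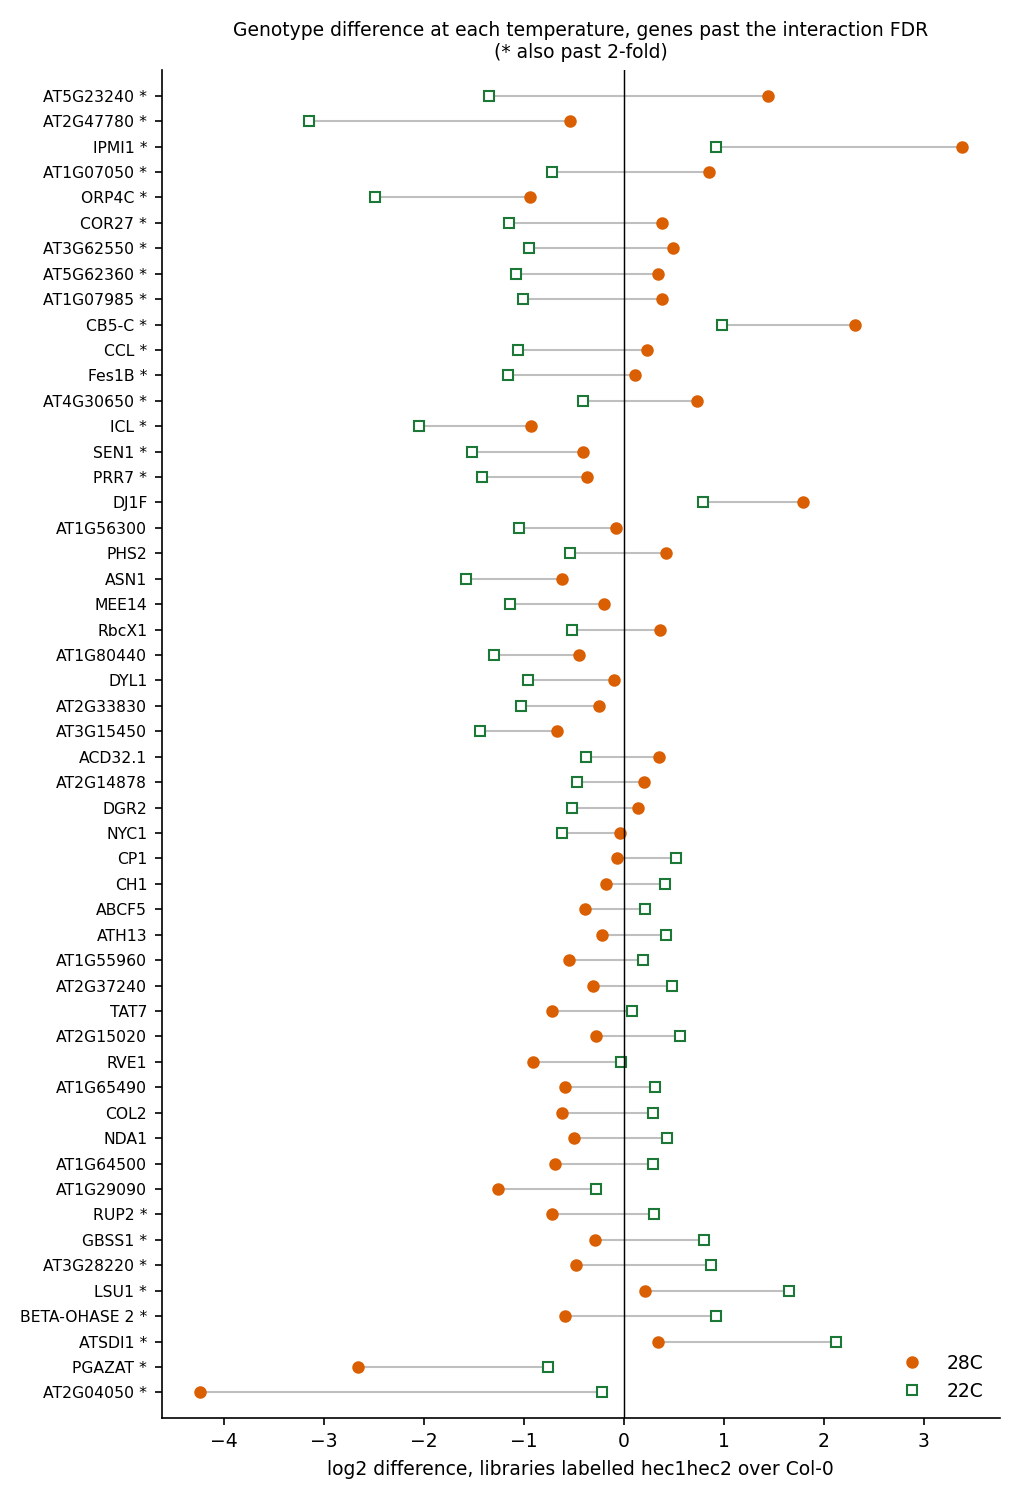
Log2 difference between the libraries labelled hec1hec2 and Col-0 (horizontal axis) at 28°C (filled circles) and at 22°C (open squares) for the 52 genes past the interaction FDR, from the highest interaction at the top to the lowest at the bottom, with an asterisk on the 24 past 2-fold. CCL lies at 0.23 at 28°C and −1.06 at 22°C, and ATSDI1 at 0.34 at 28°C and 2.12 at 22°C.

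The circadian clock list held 27 tested members, of which PRR7 passed the FDR as higher and RVE1 as lower, against 0.292% of all tested genes. RVE1, a MYB-like factor related to the clock genes CCA1 and LHY, had 16.7, 15.3 and 16.2 CPM at 28°C and 56.3, 53.1 and 49.3 CPM at 22°C in the libraries labelled hec1hec2, against 29, 24.3 and 36.4 CPM at 28°C and 58.9, 47.3 and 56.5 CPM at 22°C in Col-0. It did not overlap between genotypes at 28°C and did at 22°C, and the interaction was −0.88 ± 0.19 (log2, SE, FDR 0.035), past the FDR in 3 of the 12 fits that left out a library. The morning genes CCA1 (−0.84, FDR 0.0954) and LHY (−0.66, FDR 0.614) and the evening genes TOC1 (0.59, FDR 0.228) and PRR5 (0.68, FDR 0.488), read after their values were seen, did not pass the test. PRR7 had 50.7, 48.5 and 47.6 CPM at 28°C and 4.52, 3.79 and 5.83 CPM at 22°C in the libraries labelled hec1hec2, against 59.3, 60.2 and 70.1 CPM at 28°C and 12, 14.1 and 11.6 CPM at 22°C in Col-0. Its call was kept in 2 of the 12 fits that left out a library.

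Promoter sequences were read for the genes past the FDR, as 300 bases before the annotated start of each gene in RefSeq's TAIR10.1, and 5 short motifs known from light, clock and sugar responses were searched on both strands. The motifs were chosen after the genes were known. They were the G-box CACGTG, the PIF-binding E-box CATGTG, the evening element AAAATATCT, the GATA motif GATAAG and the sugar-repressive element TTATCC, of which the GATA motif and the sugar-repressive element overlap where they occur as CTTATCC. The evening element was found before 7 of the 30 higher genes (23.3%) and 1 of the 22 lower genes (4.55%), against 2.98% of all 17822 promoters of that length. The G-box was found before 6 of the higher (20%) and 7 of the lower genes (31.8%), against 8.16% of all promoters. The GATA motif stood before 11 of the higher (36.7%) and 4 of the lower genes (18.2%), against 14.8%. The E-box stood before 16.7% of the higher and 27.3% of the lower genes, against 13%, and the sugar-repressive element before 30% of the higher and 13.6% of the lower genes, against 15.7%. These matches describe the letters in the windows, which can reach into a neighbouring gene, and are not binding sites that were measured.

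The promoters of 2 genes with the evening element, and of CH1 with a pair of G-boxes, are shown 5′ to 3′ on each gene's own strand, because these motifs had the highest ratio to their share in all promoters, the evening element in the higher and the G-box in the lower genes. Capitals mark matches to any of the 5 motifs on either strand. That of CCL (AT3G26740) lies at chr3:9827382-9827681 on the plus strand. That of AT5G62360 (AT5G62360) lies at chr5:25040240-25040539 on the plus strand. That of CH1 (AT1G44446) lies at chr1:16851272-16851571 on the minus strand.
CCL: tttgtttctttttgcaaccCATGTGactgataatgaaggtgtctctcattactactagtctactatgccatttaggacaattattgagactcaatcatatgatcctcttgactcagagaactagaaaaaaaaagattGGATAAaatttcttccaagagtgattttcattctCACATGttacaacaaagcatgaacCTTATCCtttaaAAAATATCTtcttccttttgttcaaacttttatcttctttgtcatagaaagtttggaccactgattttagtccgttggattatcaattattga
AT5G62360: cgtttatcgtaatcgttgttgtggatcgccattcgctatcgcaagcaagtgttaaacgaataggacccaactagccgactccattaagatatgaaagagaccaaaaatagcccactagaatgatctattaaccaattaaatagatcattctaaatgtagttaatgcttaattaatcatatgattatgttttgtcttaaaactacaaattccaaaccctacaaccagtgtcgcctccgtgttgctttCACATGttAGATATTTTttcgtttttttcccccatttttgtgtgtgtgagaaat
CH1: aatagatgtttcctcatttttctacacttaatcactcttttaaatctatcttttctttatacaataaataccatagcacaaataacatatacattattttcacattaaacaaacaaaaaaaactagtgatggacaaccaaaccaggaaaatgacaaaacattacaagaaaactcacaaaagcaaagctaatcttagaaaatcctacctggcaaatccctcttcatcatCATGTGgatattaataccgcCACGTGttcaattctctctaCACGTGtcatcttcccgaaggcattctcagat

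In the higher genes all 8 copies of the evening element began between 12 and 93 bases before the gene start. CCL and AT5G62360 held 1 each. AT3G62550 and AT5G23240 held none in this window.

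The growth genes at the center of thermomorphogenesis rose in both genotypes, and none passed the interaction FDR. PIF4 had 86.3, 67.1 and 93.6 CPM at 28°C and 11.1, 8.64 and 11.2 CPM at 22°C in the libraries labelled hec1hec2, against 80.9, 75.9 and 82.4 CPM at 28°C and 15.4, 17.6 and 14.8 CPM at 22°C in Col-0. Its interaction of 0.67 ± 0.21 (log2, SE) did not pass (FDR 0.28), while its genotype difference was 0.04 at 28°C (FDR 0.9) and −0.62 at 22°C (FDR 0.036). YUC8, a flavin monooxygenase of auxin synthesis, rose by 1.46 in the libraries labelled hec1hec2 and by 1.41 in Col-0, with an interaction of 0.05 ± 0.38 (SE, FDR 0.99). IAA29, an auxin-inducible repressor, rose by 2.85 in the libraries labelled hec1hec2 and by 2.65 in Col-0, with an interaction of 0.2 ± 0.54 (SE, FDR 0.98). HFR1, which sequesters PIFs, had an interaction of 0.77 ± 0.4 (SE, FDR 0.78).

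The interactions of PIF1, PIF3, PIF5 and the thermosensor phytochrome B did not pass the FDR. PIF5 (listed as PIL6) rose by 1.18 in the libraries labelled hec1hec2 and 1.19 in Col-0, an interaction of −0.01 ± 0.16 (SE, FDR 1). PIF1 (listed as PIL5) had an interaction of −0.05 ± 0.24 (SE, FDR 0.99) and PIF3 one of 0.45 ± 0.24 (SE, FDR 0.81). PHYB had an interaction of 0 ± 0.28 (SE, FDR 1), and HEC1 one of −0.28 ± 0.25 (SE, FDR 0.92). PIL1 was too low for a test, with 1 to 13 counts a library. Of the 22 tested HEC, PIF and partner genes none passed the FDR, against 0.292% of all tested genes, with a median interaction of −0.01. At that share a list of this size would usually hold none.

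The list of aliphatic glucosinolate biosynthesis, the pathway that makes sulfur-rich defense compounds from methionine, had the highest median interaction of the pathway lists, 0.70 over 24 tested members against 0.01 over all genes. Of its members 1 was called, against 0.135% of all tested genes. That member was IPMI1, an isopropylmalate isomerase subunit that serves chain elongation, with 16, 11.7 and 18.1 CPM at 28°C and 30.4, 19.2 and 20.6 CPM at 22°C in the libraries labelled hec1hec2, against 1.73, 1.89 and 0.818 CPM at 28°C and 14.3, 10.4 and 12.9 CPM at 22°C in Col-0. Col-0 at 28°C was the low group, and all libraries labelled hec1hec2 lay above Col-0 at their temperature. IPMI1 fell by 0.63 on the log2 scale in the libraries labelled hec1hec2 and by 3.1 in Col-0, with an interaction of 2.47 ± 0.39 (SE, FDR 0.0021). Over the list the median response was −0.61 in the libraries labelled hec1hec2 and −1.70 in Col-0, and 21 of the 24 interactions lay above 0 (87.5%, against 51.1% of all genes). Such a share was not particular to this list. It was 14 of 16 (87.5%) for cold and dehydration genes and 12 of 14 (85.7%) for endoplasmic reticulum chaperones. The remaining 23 members did not pass the test. The list of glucosinolate regulators had 1 lower member of 9 tested, ATSDI1, while the indolic branch had 0 of 12 past the FDR, against 0.292% of all tested genes.

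Lists of sulfur and of pigment genes had medians below 0. Of 16 tested genes of sulfate assimilation and sulfur limitation, LSU1 alone passed, against 0.292% of all tested genes. In this list 3 interactions lay above 0 (18.8%, against 51.1% of all tested genes), with a median of −0.33. Of 27 genes of chlorophyll and carotenoid biosynthesis, BETA-OHASE 2 and CH1 passed as lower, against 0.292% of all tested genes in either direction, with a list median of −0.22. Of 34 light signalling genes RUP2 passed as lower, against the same 0.292% of all tested genes. None of the 38 photosystem, antenna and Rubisco genes passed, and 4 of their interactions lay above 0 (10.5%, against 51.1% of all tested genes). Their interactions lay between −0.50 and 0.06, with a median of −0.16. The flavonoid and anthocyanin list had median log2 responses of −2.51 in the libraries labelled hec1hec2 and −2.37 in Col-0. None of its 27 tested genes passed the interaction FDR, against 0.292% of all tested genes. Its member of lowest p, MYBL2, a repressor of that pathway, had an interaction of 1.15 ± 0.27 (SE, FDR 0.062).

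In the remaining pathway lists no member passed, against 0.292% of all tested genes. At that share most lists of these sizes would hold none. The heat shock list (22 tested, median interaction −0.07) had HSFA7A as its member of lowest p, with 0.56 ± 0.19 (log2, SE, FDR 0.37), and the cell wall growth list (38 tested, 0.03) had TCH4, a xyloglucan endotransglucosylase, with 0.95 ± 0.23 (SE, FDR 0.076). TCH4 was at 28.9, 22.4 and 31.3 CPM at 28°C and 11.5, 11.2 and 9.2 CPM at 22°C in the libraries labelled hec1hec2, against 28.8, 30.5 and 40.3 CPM at 28°C and 21.9, 29 and 23.9 CPM at 22°C in Col-0. The cold and dehydration list (16 tested, 0.30) had LTI78, a dehydration-responsive gene, with 0.91 ± 0.23 (SE, FDR 0.085). Auxin biosynthesis (6 tested, −0.11), Aux/IAA and GH3 genes (28 tested, 0.08), SAUR genes (50 tested, 0.04), gibberellin and brassinosteroid genes (24 tested, −0.02) and jasmonate genes (20 tested, −0.17) had none past the FDR. Neither had salicylic acid and immunity (11 tested, 0.15), endoplasmic reticulum chaperones (14 tested, 0.10), cytokinin and ethylene (15 tested, −0.06), flowering time (9 tested, −0.08), iron deficiency (20 tested, 0.22), glucosinolate breakdown (9 tested, −0.15) or the 286 tested genes whose product names a ribosomal protein (−0.05).

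**Figure D4:**
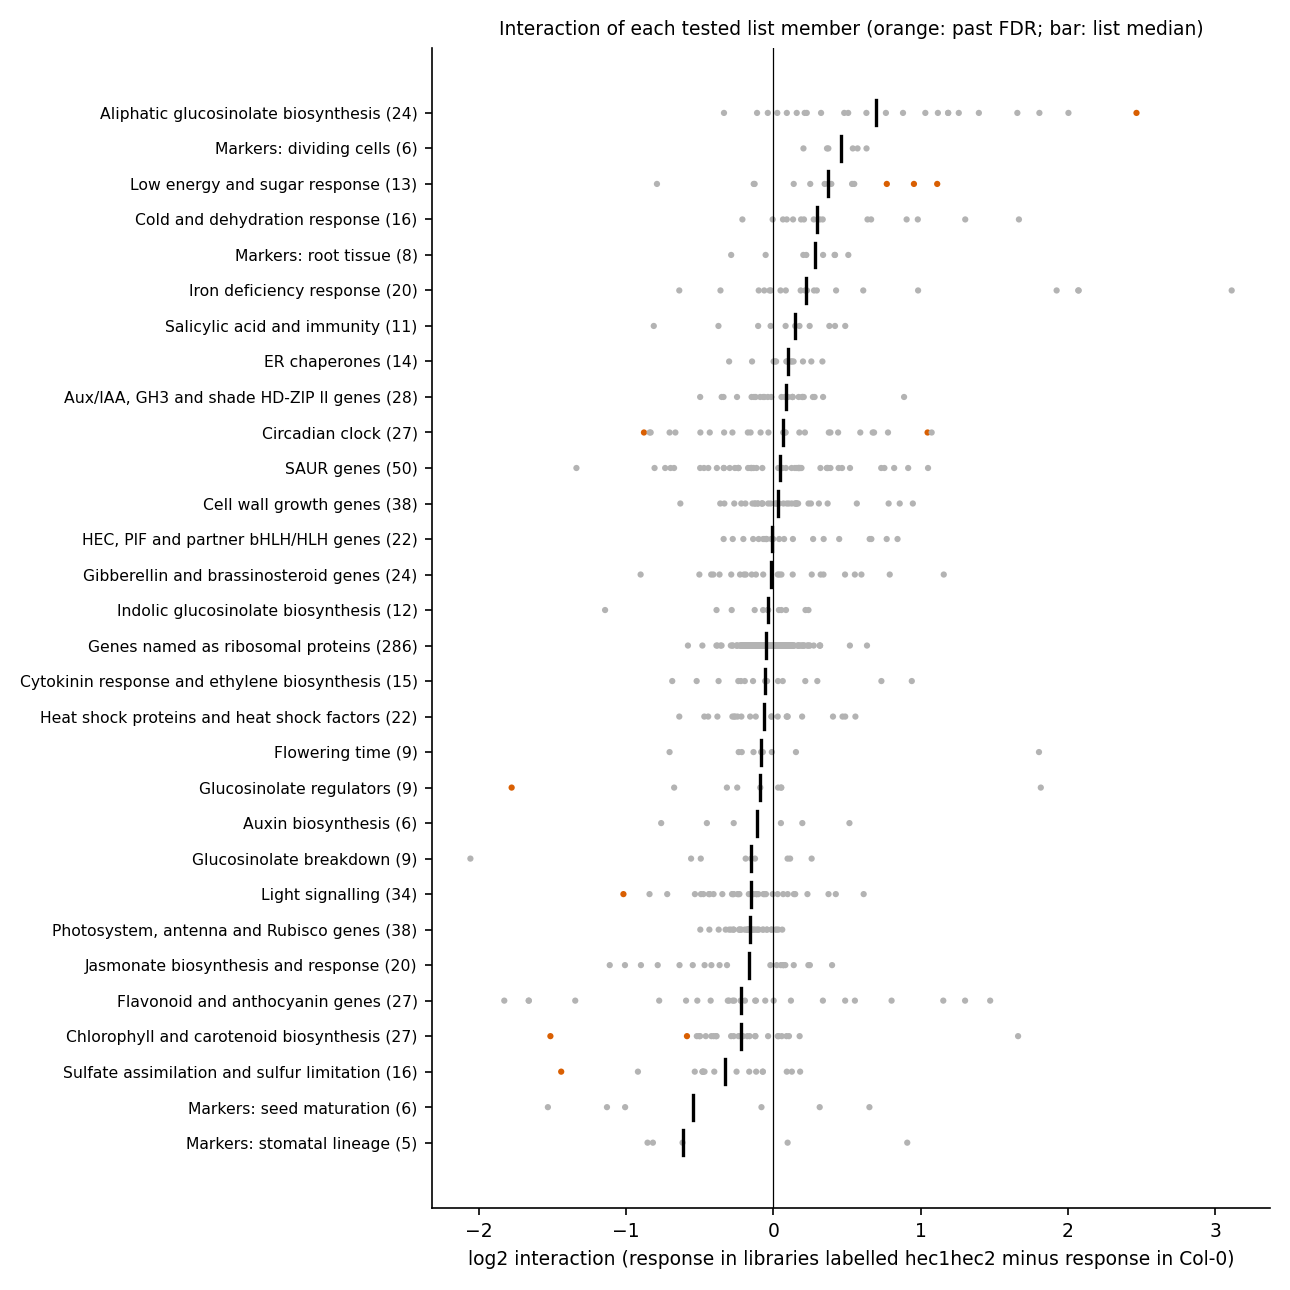
Interaction on the log2 scale (horizontal axis) of each tested member of the gene lists, with the number tested in brackets, orange for members past the FDR and a black bar at each list's median. The aliphatic glucosinolate list has a median of 0.70, the sulfate list one of −0.33, and most lists lie near 0.

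Markers of cell types moved with temperature and genotype too, and their part in the interactions was not tested. The 6 dividing cell markers summed to 104 to 115 CPM at 28°C and 66.4 to 81.4 CPM at 22°C in the libraries labelled hec1hec2, against 72.4 to 81.6 CPM at 28°C and 65.8 to 75 CPM at 22°C in Col-0. All 6 of their interactions lay above 0, against 51.1% of all tested genes. The 12 seed maturation markers summed to 96.2 to 125 CPM at 28°C and 10.1 to 24.5 CPM at 22°C in the libraries labelled hec1hec2, against 53.1 to 110 CPM at 28°C and 6.77 to 7.95 CPM at 22°C in Col-0. The 12 root markers summed to 2820 to 3270 CPM at 28°C and 3180 to 3370 CPM at 22°C in the libraries labelled hec1hec2, against 2170 to 2390 CPM at 28°C and 2740 to 2940 CPM at 22°C in Col-0. The 6 stomatal lineage markers summed to 24.1 to 29.1 CPM at 28°C and 35.8 to 40.8 CPM at 22°C in the libraries labelled hec1hec2, against 32.4 to 34.2 CPM at 28°C and 38.8 to 43.4 CPM at 22°C in Col-0. Interactions lay above 0 for 2 of the 6 tested seed maturation markers, 6 of 8 root markers and 2 of 5 stomatal lineage markers. No tested member of these 4 lists passed the interaction FDR, against 0.292% of all tested genes. No marker was at 0 in all 12 libraries.

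The pifQ mutant, which lacks PIF1, PIF3, PIF4 and PIF5, gave a response that shares no library with those above. It was fitted on 5 libraries, without pifQ 22°C replicate 2. Its log2 response lay nearer to that of Col-0 than to that of the libraries labelled hec1hec2 for 44 of the 52 genes (84.6%). The same held for 19 of the 24 called genes (79.2%) and for 54.9% of the 17297 genes tested in both fits. The 52 genes were chosen by the difference between those responses. For 44 of the 52 the response was larger in size in the libraries labelled hec1hec2. Such a choice can by itself place pifQ nearer to Col-0, so the share over all genes is not a matched reference. Whether pifQ lay nearer to Col-0 beyond that effect was not tested. CCL responded by 1.04 ± 0.11 (log2, SE) in pifQ, AT3G62550 by −0.45 ± 0.15, AT5G23240 by −1 ± 0.24 and IPMI1 by −3.17 ± 0.43, each nearer to its Col-0 value. ICL was an exception, with 2.11 ± 0.18 in pifQ, 2.09 in the libraries labelled hec1hec2 and 0.97 in Col-0.

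**Figure D5:**
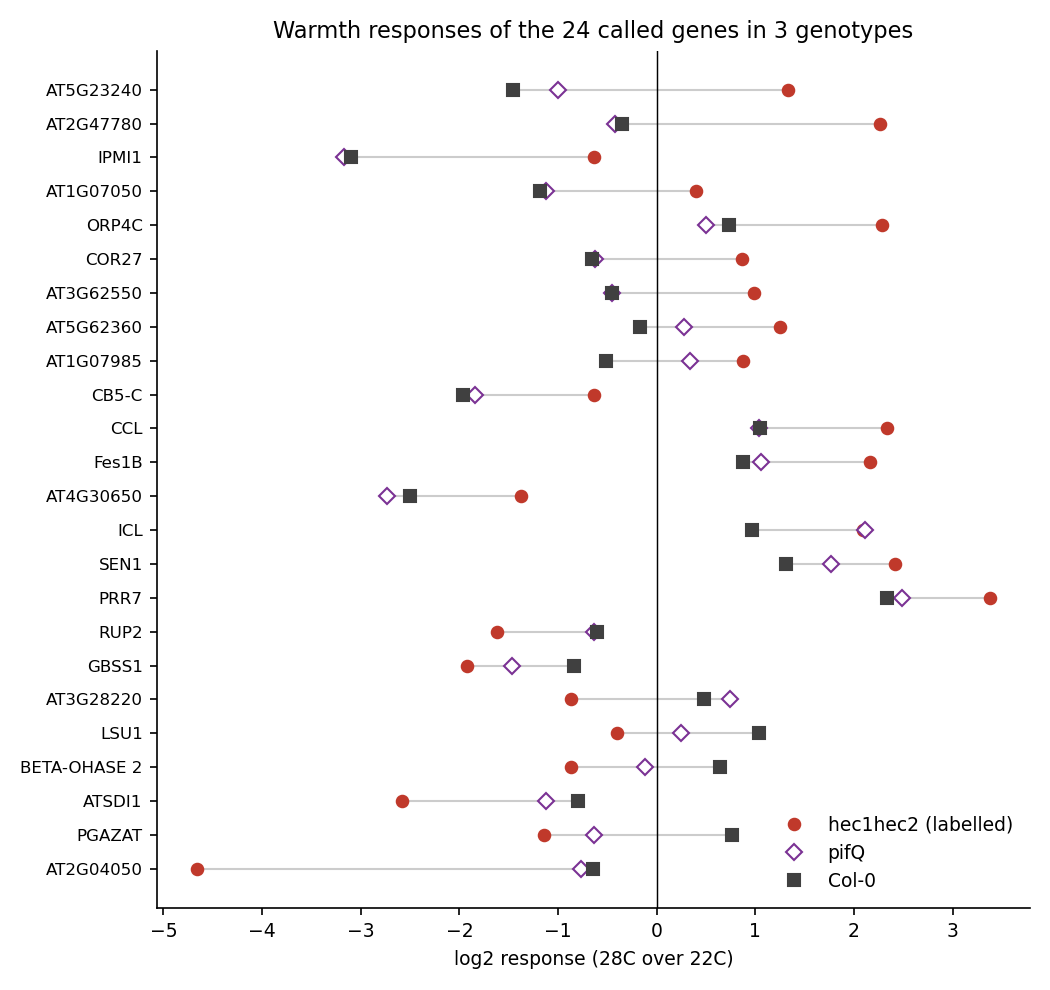
Log2 response to warmth (horizontal axis) of the 24 called genes in the libraries labelled hec1hec2 (red circles), pifQ (open diamonds) and Col-0 (dark squares), from the highest interaction at the top. For CCL pifQ lies at 1.04 and Col-0 at 1.05, with the libraries labelled hec1hec2 at 2.33.

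The size of the warmth response over genes at large was close in both genotypes. Over 1174 genes called for warmth in pifQ, with each response signed by its direction there, the median log2 response was 1.20 in the libraries labelled hec1hec2 and 1.15 in Col-0. It was larger in the libraries labelled hec1hec2 for 646 of them (55%). Over the 645 that rose in pifQ the median was 1.23 in the libraries labelled hec1hec2 and 1.11 in Col-0, and over the 529 that fell it was 1.16 in the libraries labelled hec1hec2 and 1.19 in Col-0. The 52 genes were spread over the genome, with 13, 9, 12, 4 and 14 on chromosomes 1 to 5, and the nearest neighbours among them, ABCF5 and ATH13, lay 28700 bases apart (TAIR10.1).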

How the data were processed

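RNA-seq by 3′ Tag-Seq was performed on whole Arabidopsis thaliana seedlings of 3 genotypes at 2 temperatures, with 3 libraries in each group. The authors checked reads with FastQC, aligned them with TopHat and Bowtie2 to TAIR10, counted reads per gene with HTSeq and left the deposited counts raw. Program versions, strand setting and treatment of duplicates are not given in the sources used here, so genes that overlap, run antisense or have near copies carry an uncertain count. No molecular identifiers are described, so a count of 0 or any other precision read from depth (3631558 to 6285632 counts per library) covers counting error only. Replicates are biological per the study's text, and groups were taken from the sample titles. All count columns were assigned.

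From the deposited counts, edgeR version 4.0.16 (R version 4.3.3) was run with filterByExpr, TMM factors and a quasi-likelihood fit of 4 groups over 12 libraries, in which the interaction and its 4 component contrasts were tested with Benjamini-Hochberg adjustment over all 17828 genes. A call needed an FDR of at most 0.05 and a log2 difference of at least 1. Standard errors are the absolute log2 value divided by the square root of F. CPM are counts per 1000000 with TMM factors. The common dispersion was 0.0078. The pifQ response came from a separate fit of 5 libraries. The script was checked on simulated counts. The main fit used no replicate block. Deviations from the group means correlated with a median r of 0.059 between libraries of the same replicate number. Between libraries of different numbers and groups the median was −0.034. Deviations within a group cancel out, so a positive median for same numbers goes with a negative one for different numbers. Whether the numbers mark a shared batch was not tested.

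The members and gene lists were chosen with earlier results of these data known. Named genes were HEC1, HEC2, HEC3 and those whose expression the paper names; of called genes with at least 10 counts in each group, the 8 of lowest p and the 5 of largest size in each direction; and called list members or, without one, at most the list's member of lowest p. Names, roles and promoters used RefSeq's TAIR10.1, in which all 32548 loci of chromosomes 1 to 5 matched, while 1107 other identifiers have no name here. Alternatives were RLE factors, a minimum of 1 CPM in 3 libraries, no filter at all, DESeq2 version 1.42.0, limma version 3.58.1 voom, 17 or 18 libraries, a replicate block, thinning to the smallest library, the FDR alone, the linear scale and leaving out each library.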

Additional observations from a re-analysis of the deposited data

Results flagged for a closer look

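The test of the difference between the responses of the libraries labelled hec1hec2 and Col-0 marked 24 genes. On the log2 scale the higher interactions were 2.79 for AT5G23240, 2.61 for AT2G47780, 2.47 for IPMI1, 1.57 for AT1G07050, 1.55 for ORP4C, 1.53 for COR27, 1.44 for AT3G62550 and 1.42 for AT5G62360. They were 1.39 for AT1G07985, 1.32 for CB5-C, 1.29 for CCL, 1.27 for Fes1B, 1.13 for AT4G30650, 1.12 for ICL, 1.11 for SEN1 and 1.05 for PRR7. The lower interactions were −1.02 for RUP2, −1.08 for GBSS1, −1.36 for AT3G28220, −1.44 for LSU1, −1.51 for BETA-OHASE 2, −1.78 for ATSDI1 and −1.89 for PGAZAT. The fitted value of −4.02 for AT2G04050 depends on the prior count, because its libraries labelled hec1hec2 at 28°C held 3, 1 and 1 counts. Groups of 3 libraries were too small for a formal test of single outlying libraries, so the chi-square distances between replicates given above are descriptive.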

How the results depend on the processing

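Of 24 called genes (16 higher, 8 lower), 9 kept their call in all 12 fits that left out a library and 3 in every fit. Called genes numbered 52 by the FDR alone (30 higher, 22 lower), 57 without a filter (39 higher, 18 lower) and 3 with all 18 libraries (3 higher, 0 lower, with 693 at an unadjusted p under 0.05). The replicate block called 38 (28 higher, 10 lower), with 121 past the FDR alone. Deviations from the group means correlated at −0.041 to 0.189 between libraries of the same replicate number (2 of 18 over 0.1). Between libraries of different numbers they correlated at −0.131 to 0.088 (0 of 36 over 0.1). Because deviations within a group cancel out, these ranges are not independent of each other. All 24 genes were among the 57 and among the 38. The lower genes numbered 5 with 17 libraries, with thinned counts and with limma voom. Leaving out a library gave 16 to 30 called genes, 11 to 20 higher and 3 to 13 lower. On the linear scale 48 of the 52 genes kept their sign, while ICL was −27.4 CPM, PRR7 −6.41 CPM, ASN1 −83.3 CPM and AT3G15450 −39.4 CPM. By the FDR alone the warmth responses numbered 6771 in the libraries labelled hec1hec2 and 6227 in Col-0, and the genotype differences 782 at 28°C and 723 at 22°C. The difference at 28°C called 239 genes, 156 with all 18 libraries and between 136 (without Col-0 28°C replicate 3) and 308 when a library was left out. Over genes chosen in pifQ by the FDR alone the median responses were 0.672 in the libraries labelled hec1hec2 and 0.641 in Col-0. The causes were not tested, except that the FDR alone drops a criterion. Depth limited what could be seen in genes such as HEC2, HEC3 and PIL1, which were too low for a test.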
